A study of Drosophila melanogaster with 6 samples.

Results

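The eggshell of the fly egg is made by genes of the follicle cells of the ovary, and transcripts of 10 of them were followed here in RNA-seq libraries of dissected fat bodies. The genes were the 6 chorion protein genes Cp15, Cp16, Cp18, Cp19, Cp36 and Cp38 and the 4 vitelline membrane genes Vm26Aa, Vm26Ab, Vm32E and Vm34Ca. They were chosen by name, and all 10 were found by FlyBase identifier among the 15682 genes of the count table. All 10 passed the filter on low counts, which kept 10398 genes for testing. The tissue came from adult Drosophila melanogaster females aged 7 to 10 days, kept at 25 °C, with 3 libraries in each of 2 groups. FB-Dp110DN flies carried the fat body driver FB-GAL4 together with a transgene for Dp110 made dominant-negative, where Dp110 is the catalytic part of the phosphoinositide 3-kinase that acts below the insulin receptor. FB-GAL4 flies carried the driver alone. Flies of both groups had the white Dahomey background and were Wolbachia positive, the driver was constitutive, and the transgene, under UAS control, carried a myc tag and a defect in ATP binding. The females had been kept with males before they were separated. Each sample pooled tissue of 5 flies by the series design, whereas the study's methods give another number. The comparison addressed which transcripts differ when Dp110 signalling is lowered in the fat body.

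The eggshell is laid down around the growing egg in layers. Follicle cells first secrete the proteins of the vitelline membrane, the inner layer, during the middle stages of egg chamber growth, and later those of the chorion, the outer layer. The chorion genes lie in a cluster on the X chromosome and a cluster on chromosome arm 3L, and both clusters are copied many times over in follicle cells before they are transcribed. Cp36 and Cp38, of the X cluster, are early chorion genes, Cp16 and Cp19 follow, and Cp15 and Cp18 are transcribed last, so that the classes report on egg chambers of different stages. In the reference annotation of the later build BDGP6, Cp18, Cp15, Cp19 and Cp16 followed each other in that order on the plus strand of arm 3L. Cp36 and Cp38 lay beside each other on the X chromosome, next to Cp7Fc. The vitelline membrane genes were all on arm 2L, where Vm26Ab and Vm26Aa had only Vm26Ac between them. Vm32E and Vm34Ca each stood apart from the rest. Cp36 and Cp38 lay within the span of CG33223 and Vm32E within that of Ca-beta, in each case with no shared exon. The vitelline membrane genes are related in sequence, so the division of reads among them is uncertain.

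The libraries held 22607341 to 36870161 counts each. Pi3K92E, which encodes Dp110 and also takes up the reads of the transgene, had 892, 1246 and 343 CPM in FB-Dp110DN, against 81.0, 89.9 and 94.1 CPM in FB-GAL4, where CPM is the count scaled to library size, so each library was on the side its label gives. Its log2 fold change of 3.05 (SE 0.40) had an adjusted p-value of 0.157 in the quasi-likelihood test of edgeR and of 6.0e-17 in the Wald test of DESeq2. The yolk protein genes Yp1, Yp2 and Yp3, which are expressed in the fat body and also in follicle cells, reached 20215 to 31294, 14711 to 17795 and 14729 to 15043 CPM in FB-Dp110DN, against 8961 to 26391, 5700 to 17051 and 5350 to 15463 CPM in FB-GAL4. Germline genes were read as well, with 13 of 15 listed genes found and a summed level of 975 to 1872 CPM in FB-Dp110DN and 1769 to 1935 CPM in FB-GAL4. Muscle genes stood out in replicate 3 of both groups, where 7 of them summed to 28391 CPM in FB-Dp110DN and 14666 CPM in FB-GAL4. In the other libraries they summed to 4619 and 5176 CPM in FB-Dp110DN and to 3920 and 3427 CPM in FB-GAL4.

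None of the 10 eggshell genes differed between the groups beyond the spread of the libraries, whereas their total was lower in FB-Dp110DN on one scaling and overlapped on another. Together they took 0.380%, 0.275% and 0.398% of the counts of the FB-Dp110DN libraries 1, 2 and 3, against 0.418%, 0.401% and 0.451% in FB-GAL4. By this share every FB-Dp110DN library was below every FB-GAL4 library, with log2 ratios of -0.14, -0.55 and -0.18 in the same-numbered pairs and a two-sided exact permutation p of 0.1, the smallest that 3 against 3 libraries allow. Shares of the library total carry no TMM factor, and without that factor all genes shifted down by 0.215 on the log2 scale in FB-Dp110DN relative to FB-GAL4. With the TMM factor their CPM summed to 3790 ± 806 in FB-Dp110DN and 3930 ± 218 in FB-GAL4 (SD, n = 3 each), the groups overlapped, the pairs gave -0.09, -0.32 and 0.18 and the exact permutation p was 0.8. The comparison of the scalings was added after the data had been seen. Of the 10 genes, 0 passed an adjusted p-value of 0.05 in the edgeR quasi-likelihood test, which called 3 of the 10398 genes tested (0.0289%). At an unadjusted p-value under 0.05 it was again 0 of the 10 genes, whereas 25.6% of all genes were past that limit. DESeq2 also called 0 of the 10, with 9.55% of all genes called. The lowest edgeR adjusted p-value among the eggshell genes was 0.291, for Cp19.

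Their estimates lay on both sides of 0. The log2 fold change of FB-Dp110DN over FB-GAL4 was positive for 5 genes and negative for 5, when 46.5% of all genes had a negative one, and its median was -0.06 beside 0.04 for all genes. In none of the 10 did the FB-Dp110DN libraries all lie above or all below the FB-GAL4 libraries, which occurred in 32.6% of all genes, above in 11.6% and below in 21%. Nor did it occur in any of the 10 without the TMM factor, when 3.9% of all genes were above and 35.2% below. Same-numbered libraries were taken as the pairs processed on the same day, which the sources do not state outright. The sign was the same in all 3 such pairs for 0 of the 10 genes. Among all genes it was the same for 56%, positive in 28.3% and negative in 27.7%. The median log2 ratio of the 10 genes was 0.04 in the pair of replicates 1, -1.01 in the pair of replicates 2 and 0.59 in the pair of replicates 3. The intervals of the single genes were wide, so a p-value above the limit does not show that the levels were alike. Follicle cells belong to the ovary, and the amount of ovary tissue in each dissected sample was not measured. In bulk tissue, less ovary tissue, egg chambers of other stages, fewer follicle cells and less RNA per cell cannot be told apart.

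**Figure D1:**
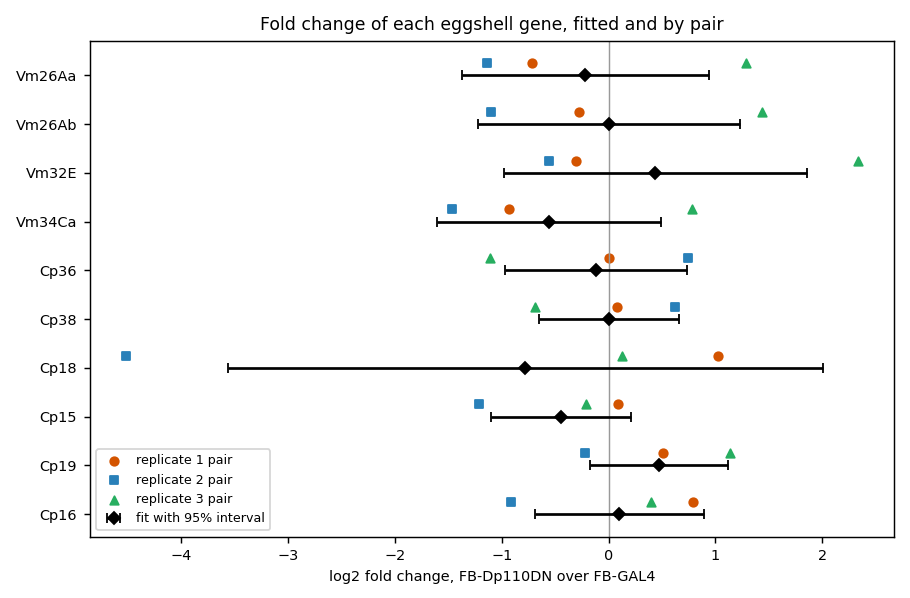
Log2 fold change of FB-Dp110DN over FB-GAL4 for each of the 10 eggshell genes (rows), with the fitted value and its 95% interval in black and the log2 ratio of each same-numbered pair of libraries in colour. All 10 intervals hold 0, and the points of the 3 pairs lie on both sides of 0 for each gene, with Cp18 reaching -4.52 in the pair of replicates 2.

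The vitelline membrane genes were highest in replicate 3 of FB-Dp110DN for Vm26Aa, Vm26Ab and Vm32E, and Vm26Aa, Vm26Ab and Vm34Ca were lowest in replicate 2 of the same group. Vm26Aa (FBgn0003979), a structural protein of the membrane, had 474, 220 and 988 CPM in FB-Dp110DN libraries 1, 2 and 3, against 780, 484 and 405 CPM in FB-GAL4. Replicate 2 of FB-Dp110DN thus lay below all FB-GAL4 libraries and replicate 3 above them, with replicate 1 inside their range. Its log2 fold change was -0.22 (SE 0.47, 95% interval -1.37 to 0.94) with an edgeR adjusted p-value of 0.780, and its log2 ratio in the pairs was -0.72, -1.14 and 1.29. Vm26Ab (FBgn0003980), another structural protein of the membrane, had 166, 65.3 and 391 CPM in FB-Dp110DN, against 202, 140 and 144 CPM in FB-GAL4. Again a single FB-Dp110DN library was above the others, and the estimate was 0.00 (95% interval -1.23 to 1.23).

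Vm32E (FBgn0014076), a vitelline membrane protein that in Drosophila also reaches the inner chorion, was the least abundant of the 10. It had 46.2, 20.9 and 99.6 CPM in FB-Dp110DN, against 57.1, 30.8 and 19.7 CPM in FB-GAL4. The highest value belonged to replicate 3 of FB-Dp110DN and the lowest to replicate 3 of FB-GAL4, and the log2 ratio of that pair was 2.33 when the other pairs gave -0.31 and -0.56. Vm34Ca (FBgn0003983), a structural protein too, had 307, 142 and 582 CPM in FB-Dp110DN, against 584, 391 and 340 CPM in FB-GAL4. Its highest FB-Dp110DN and FB-GAL4 libraries were level, and its estimate of -0.56 (95% interval -1.60 to 0.49) was the lowest of the 4 membrane genes. Summed over these 4 genes, the level was 993, 448 and 2060 CPM in FB-Dp110DN, against 1622, 1047 and 908 CPM in FB-GAL4. The FB-GAL4 libraries were therefore all inside the range of the FB-Dp110DN libraries.

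The early chorion genes of the X cluster ran the other way. Cp36 (FBgn0000359), a major structural protein of the chorion, had 611, 749 and 308 CPM in FB-Dp110DN, against 611, 447 and 667 CPM in FB-GAL4. Cp38 (FBgn0000360), its neighbour and another major chorion protein, had 939, 1169 and 636 CPM in FB-Dp110DN, against 892, 759 and 1028 CPM in FB-GAL4. For both genes replicate 2 of FB-Dp110DN was the highest library and replicate 3 of FB-Dp110DN the lowest, the reverse of Vm26Aa and Vm26Ab. The log2 fold change was -0.12 (95% interval -0.97 to 0.73) for Cp36 and 0.00 (95% interval -0.65 to 0.66) for Cp38. In the pairs it was 0.00, 0.75 and -1.11 for Cp36 and 0.07, 0.62 and -0.69 for Cp38. The intervals of the vitelline membrane genes were wider than the interval of Cp38, which also had the smallest range of the 10, with its highest library at 1.84 times its lowest.

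The chorion genes of the 3L cluster were less uniform. Cp15 (FBgn0000355), a structural protein of the last stage of chorion formation, had 567, 330 and 838 CPM in FB-Dp110DN, against 535, 765 and 973 CPM in FB-GAL4. Its estimate was -0.44 (95% interval -1.10 to 0.21), with log2 ratios of 0.08, -1.21 and -0.22 in the pairs. Replicate 2 of FB-Dp110DN was its lowest library. Cp19 (FBgn0000358), a chorion protein of the stage before, had 264, 193 and 437 CPM in FB-Dp110DN, against 186, 226 and 199 CPM in FB-GAL4. Its FB-GAL4 libraries were close together and its estimate, 0.47 (95% interval -0.17 to 1.12), was the highest of the 10. Cp16 (FBgn0000356), a chorion protein of the same stage as Cp19, had 91.7, 50.6 and 91.1 CPM in FB-Dp110DN, against 53.0, 95.2 and 69.2 CPM in FB-GAL4, with the lowest and the highest library in opposite groups of the pair of replicates 2.

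**Figure D2:**
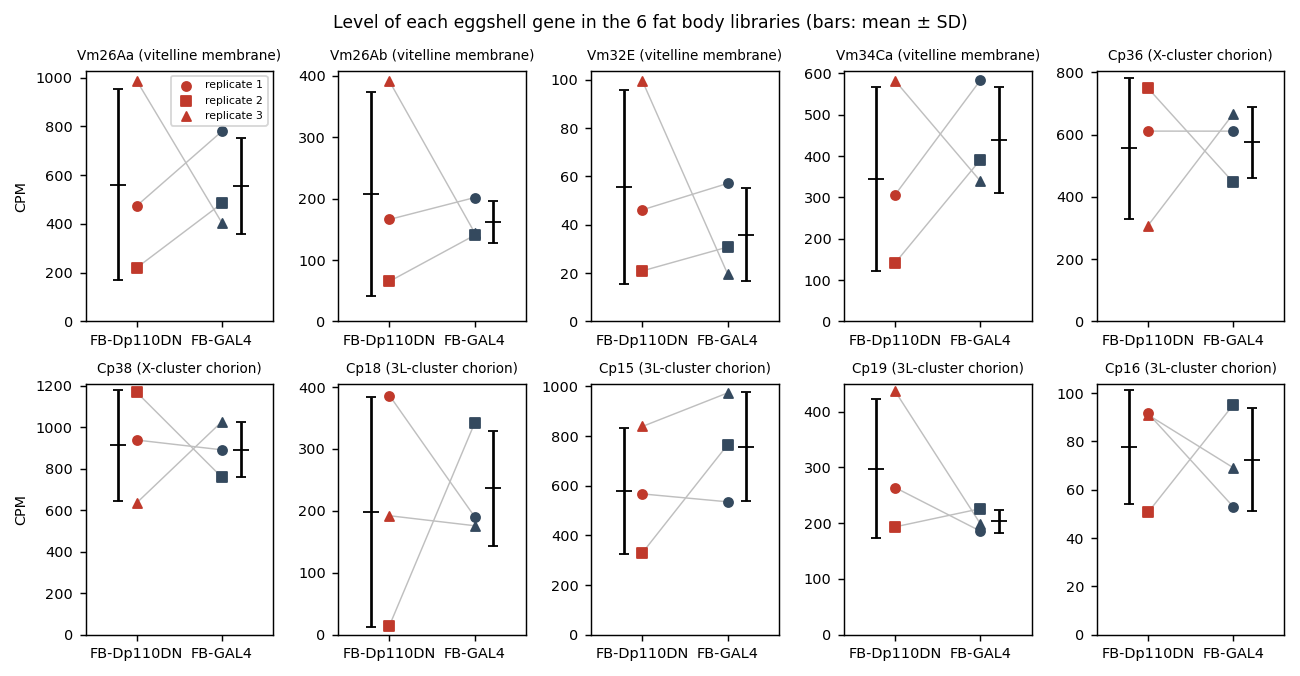
Level of each of the 10 eggshell genes in CPM (vertical axis from 0) in the 3 FB-Dp110DN libraries (red, left) and the 3 FB-GAL4 libraries (blue, right), with lines joining same-numbered libraries and bars for the mean ± SD of each group. The groups overlap in every panel, the vitelline membrane genes are low and the X-cluster genes high in replicate 2 of FB-Dp110DN, and Cp18 is near 0 there at 14.9 CPM.

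Cp18 (FBgn0000357), a major late chorion protein encoded directly before Cp15, had the widest range of the 10. It had 386, 14.9 and 192 CPM in FB-Dp110DN, against 190, 342 and 176 CPM in FB-GAL4, and replicate 2 of FB-Dp110DN thus stood far below the other 5 libraries. That library held 510 counts of Cp18, whereas the other FB-Dp110DN libraries held 8775 and 5653 and the FB-GAL4 libraries 6700, 8438 and 5636. The highest library was 26.0 times the lowest. On the log2 scale the low library was 3.56 under the next lowest, the 13th largest such gap of the 10398 genes and the 6th largest of the 7440 genes with a mean of at least 10 CPM. Replicate 2 of FB-Dp110DN was the lowest library for 2873 genes, 27.6% of those tested, and among them Cp18 had the largest gap, followed by CG17999 with 2.64 and LManIII with 2.61. These ranks were looked up after the low value had been seen.

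The neighbours of Cp18 did not fall as far as Cp18 did. In replicate 2 of FB-Dp110DN, the deepest library, Cp15, Cp19 and Cp16 held 11298, 6631 and 1735 counts. Their log2 ratios in the pair of replicates 2 were -1.21, -0.22 and -0.91, and the CPM of Cp15 and Cp16 was lowest in that library too. Per 100 counts of Cp15 there were 68.1, 4.51 and 22.9 counts of Cp18 in FB-Dp110DN, against 35.6, 44.8 and 18.1 in FB-GAL4. The same ratio for Cp19 was 46.5, 58.7 and 52.1 in FB-Dp110DN, against 34.7, 29.6 and 20.4 in FB-GAL4, with no such drop. The log2 fold change of Cp18 was -0.78 (SE 1.14, 95% interval -3.57 to 2.01) with an edgeR adjusted p-value of 0.669. It turned to 0.57 when the pair of replicates 2 was left out, and its log2 ratios in the pairs were 1.02, -4.52 and 0.13.

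Leaving out the pair of replicates 3 changed the calls. Without it, 4 of the 10 genes passed the 0.05 limit of the edgeR test, all of them lower in FB-Dp110DN, beside 8.45% of all genes called in that fit, 3.74% higher and 4.71% lower. They were Cp18 with a log2 fold change of -1.71 (adjusted p-value 1.9e-04), Vm34Ca with -1.19 (3.6e-04), Vm26Aa with -0.92 (0.0110) and Vm26Ab with -0.68 (0.0498). For Cp18 the pairs of replicates 1 and 2 went opposite ways, with log2 ratios of 1.02 and -4.52. For Vm34Ca, Vm26Aa and Vm26Ab both of these pairs were negative. With 2 libraries a group that edgeR fit gave all genes a shared quasi-dispersion, so its p-values do not measure the spread of single genes. The same holds for its calls in the other gene lists below. Without replicates 1 and without replicates 2, 0 of the 10 were called in edgeR, as were 0 of all genes (0%). The replicate 3 libraries were also those with the high muscle levels given above, and the part of the muscle genes in this result was not tested.

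The spread within a group was larger in FB-Dp110DN for every one of the genes. The SD of log2 CPM over the 3 libraries was above that of FB-GAL4 in 10 of 10, beside 57.8% of all genes. It ran from 0.45 for Cp38 to 2.47 for Cp18 in FB-Dp110DN, and from 0.14 for Cp19 to 0.77 for Vm32E in FB-GAL4. The median gene had an SD of 0.23 in FB-Dp110DN and 0.20 in FB-GAL4. Since genes of a class move together, less closely in the 3L cluster, and all 10 share the libraries, the count is a description and was not tested.

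Per kilobase of exon, Cp15 was the most abundant gene in both groups, with 1123 ± 494 CPM per kb in FB-Dp110DN and 1471 ± 426 CPM per kb in FB-GAL4 (SD, n = 3 each, here and below). Vm26Aa came next in FB-Dp110DN, where it had 753 ± 525 CPM per kb, against 747 ± 265 in FB-GAL4. Cp38 had 732 ± 214 CPM per kb in FB-Dp110DN and 715 ± 108 in FB-GAL4. Neighbours in this order were within each other's spread in FB-Dp110DN. Vm34Ca had 699 ± 453 CPM per kb in FB-Dp110DN and 892 ± 262 in FB-GAL4, where it was next after Cp15. At the low end were Cp16, with 149.0 ± 45.1 CPM per kb in FB-Dp110DN and 139 ± 40.8 in FB-GAL4, and Vm32E, with 111 ± 80.5 in FB-Dp110DN and 71.9 ± 38.5 in FB-GAL4. In FB-GAL4 the step from Vm26Ab, at 255 ± 54.0, to Cp16 was the only one between neighbours where mean ± SD did not overlap. By mean CPM the 10 genes were between the 65.5th and the 98.7th percentile of the genes tested.

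The make-up of the eggshell counts varied more between libraries than between groups. The vitelline membrane genes gave 25.8%, 15.2% and 45.2% of the counts of the 10 genes in FB-Dp110DN, against 39.7%, 28.4% and 22.6% in FB-GAL4. The X-cluster genes gave 40.2%, 64.9% and 20.7% in FB-Dp110DN, against 36.7%, 32.8% and 42.2% in FB-GAL4. Replicates 2 and 3 of FB-Dp110DN were therefore the extremes of both classes, in opposite order. The 3L-cluster genes gave 34.0%, 19.9% and 34.2% in FB-Dp110DN, against 23.6%, 38.8% and 35.3% in FB-GAL4. Counting error is small beside these differences, since no Wilson 95% interval was wider than 0.325 percentage points to either side, and such intervals cover counting error only because PCR copies are not independent molecules.

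As group means, the vitelline membrane share was 28.7 ± 15.2% in FB-Dp110DN and 30.2 ± 8.68% in FB-GAL4 (SD, n = 3 each). The X-cluster share was 41.9 ± 22.2% in FB-Dp110DN and 37.2 ± 4.71% in FB-GAL4, and the 3L-cluster share 29.4 ± 8.17% in FB-Dp110DN and 32.5 ± 7.96% in FB-GAL4. Each difference was smaller than the SD in FB-Dp110DN. For every count of the X-cluster genes there were 0.641, 0.234 and 2.18 vitelline membrane counts in FB-Dp110DN, against 1.08, 0.868 and 0.536 in FB-GAL4. The FB-GAL4 ratios were thus enclosed by those of FB-Dp110DN.

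**Figure D3:**
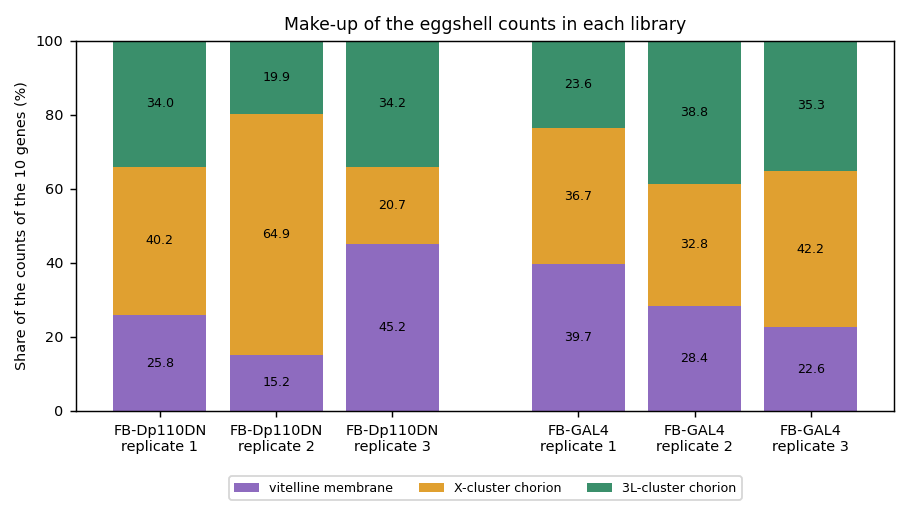
Share of the summed counts of the 10 eggshell genes (percent, bars to 100%) that fell to the vitelline membrane, X-cluster chorion and 3L-cluster chorion genes, for the 3 FB-Dp110DN libraries on the left and the 3 FB-GAL4 libraries on the right. The X-cluster share is 64.9% in replicate 2 of FB-Dp110DN and 20.7% in replicate 3 of the same group, and between 32.8% and 42.2% in the FB-GAL4 libraries.

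Within the vitelline membrane class and within the X cluster, genes went up and down together across the 6 libraries. The 3L-cluster genes did so less closely. These correlations are descriptions over 6 libraries of both groups that share depth and scaling, so no p-value is given. Between the vitelline membrane genes, Pearson's r of log2 CPM was 0.74 to 0.96 with a median of 0.89 over 6 gene pairs, and between Cp36 and Cp38 it was 0.97. Over all pairs of tested genes, 11.8% had an r of 0.74 or more. Within the 3L cluster r was lower, between 0.31 for Cp18 and Cp19 and 0.73 for Cp16 and Cp18.

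Vitelline membrane and X-cluster genes were opposed. In 8 of 8 gene pairs r was negative, between -0.85 and -0.66, whereas 50.7% of all gene pairs had a negative r and 13.5% had one of -0.66 or less. When each library was left out in turn, a check chosen after the data had been seen, all 8 stayed negative, and the weakest set, without replicate 3 of FB-Dp110DN, had a median of -0.54. X-cluster and 3L-cluster genes were also opposed in 8 of 8 pairs, with r between -0.87 and -0.45, but 6 of 8 were negative without replicate 2 of FB-Dp110DN. Vitelline membrane and 3L-cluster genes had positive r in all 16 pairs. Without replicate 2 of FB-Dp110DN, 9 of the 16 were negative and the median was -0.12, so that this relation rested on that library. Without replicate 3 of FB-Dp110DN, 2 of the 16 were negative. Within the 3L cluster the median r was 0.27 without replicate 2 of FB-Dp110DN and 0.65 with all libraries.

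Many of the other eggshell genes followed one of these class profiles. Of 18 listed genes 17 were found and tested, the exception being Vm34Cc, whose name is a synonym of one of the 10 genes. With the mean profile of the vitelline membrane genes, r was 0.99 for Vml, a vitelline membrane-like protein, 0.99 for psd (palisade), a membrane component encoded next to Vm26Aa, 0.98 for dec (dec-1, defective chorion), 0.98 for ndl (nudel), a protease secreted into the perivitelline space, and 0.96 for Vm26Ac. Vml, for example, had 74.1, 16.9 and 214 CPM in FB-Dp110DN, against 122, 58.3 and 56.1 CPM in FB-GAL4. Over 6 libraries, genes outside the eggshell lists reached such r too, with CG9953 and eEF1delta at 0.99. The genes fs(1)N, fs(1)M3 and clos had r of 0.91, 0.93 and 0.96 with the vitelline membrane profile. Their proteins sit in the vitelline membrane and act in the patterning of the embryo's ends. With the 3L-cluster profile these genes had 0.83, 0.77 and 0.81.

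With the X-cluster profile, r was 0.97 and 0.96 for yellow-g and yellow-g2, adjacent members of the yellow family that are needed for a firm eggshell. Both lie on arm 3L and not on the X chromosome. Yellow-g had 76.1, 125 and 18.2 CPM in FB-Dp110DN, against 98.5, 50.3 and 107 CPM in FB-GAL4, with the highest and the lowest library the same as for Cp36. Cp7Fb and Cp7Fc, chorion genes of the X cluster itself, followed at 0.79 and 0.86. Cp7Fa, of the same cluster, had -0.44 with the X-cluster profile and 0.60 with the 3L-cluster profile. Femcoat, another eggshell protein, had 0.95 with the 3L-cluster profile although it is encoded on the X chromosome. Likewise dec, Vml, fs(1)N and fs(1)M3 lie on the X chromosome and ndl on arm 3L, and all followed the vitelline membrane profile, so that profile and chromosome parted for many of these genes. Fcp3C, with r of -0.03, 0.16 and -0.30 to the vitelline membrane, X-cluster and 3L-cluster profiles, and tsl, with -0.18, 0.16 and -0.47, had no close relation to any of them. The ventral follicle cell gene pip had 0.59, -0.51 and 0.65.

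**Figure D4:**
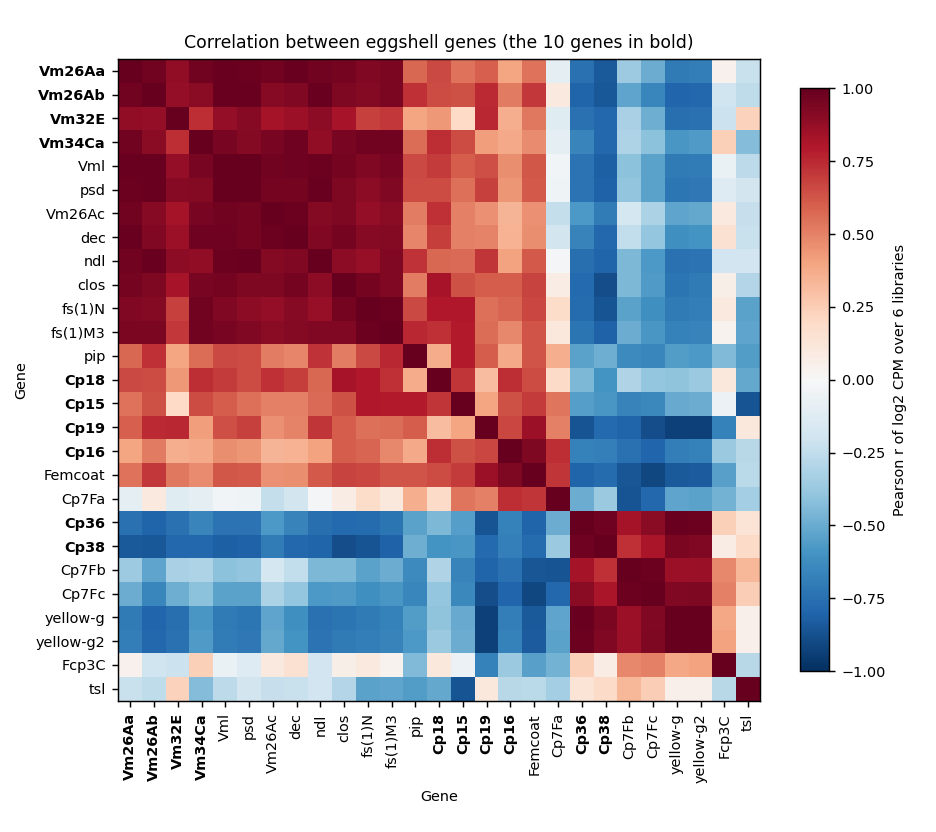
Pearson's r of log2 CPM over the 6 libraries (colour scale from -1 to 1) between the 10 eggshell genes, in bold on both axes, and the 17 other eggshell genes. The 4 vitelline membrane genes form a block with Vml, psd, dec and ndl, Cp36 and Cp38 form a block with yellow-g and yellow-g2, and r between the 4 vitelline membrane genes and Cp36 or Cp38 is -0.66 or below.

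In the comparison of the groups, 0 of the 17 other eggshell genes passed the adjusted limit in edgeR, where 0.0289% of all genes did, and 13 of 17 estimates were negative, beside 46.5% of all genes, with a median of -0.28. At an unadjusted p-value under 0.05 in edgeR there were 2, of which 1 was lower and 1 higher, beside 25.6% of all genes. The lower one was Fcp3C, a follicle cell protein gene, with 10.8, 17.1 and 9.28 CPM in FB-Dp110DN, against 57.9, 43.1 and 19.8 CPM in FB-GAL4. All its FB-Dp110DN libraries were below all its FB-GAL4 libraries, and its log2 fold change was -1.61 (SE 0.27) with log2 ratios of -2.41, -1.33 and -1.09 in the pairs. Its adjusted p-value was 0.157 in edgeR and 2.3e-05 in DESeq2, which called it alone of the 17, with 9.55% of all genes called. The higher one was tsl (torso-like), which marks the embryo's ends through the vitelline membrane, with a log2 fold change of 0.50 (SE 0.15), an edgeR adjusted p-value of 0.157 and a DESeq2 adjusted p-value of 0.0543. It had 43.3, 50.7 and 38.0 CPM in FB-Dp110DN, against 37.9, 31.7 and 24.6 CPM in FB-GAL4. Without replicates 3 the edgeR fit called 7 of the 17, all lower, beside 4.71% of all genes, and Fcp3C was among them with a log2 fold change of -1.86. The p-values of that fit do not measure the spread of single genes, and 0 of the 17 were called without replicates 1 or without replicates 2.

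Ratios between the 10 genes were compared within each library, which removes the scaling. Of 45 ratios, 6 (13.3%) did not overlap between the groups, whereas 26.8% of the ratios between any tested genes did not. Among ratios of genes of the same class it was 5 of 13 (38.5%), and among those of different classes 1 of 32 (3.12%). The exact two-sided permutation test over 3 against 3 libraries allows no p-value below 0.1, which each of the 6 reached, and the value adjusted over the 45 ratios was 0.75. The ratios named next were chosen after their values were seen. Vm32E stood at 15.1, 14.8 and 17.1 counts per 100 counts of Vm34Ca in FB-Dp110DN, against 9.79, 7.87 and 5.80 in FB-GAL4. Vm26Aa stood at 155, 156 and 170 counts per 100 of Vm34Ca in FB-Dp110DN, against 134, 124 and 119 in FB-GAL4. Cp15 stood at 215, 170 and 192 counts per 100 of Cp19 in FB-Dp110DN, against 288, 338 and 490 in FB-GAL4. The levels of these genes overlapped between the groups, whereas these 3 proportions, picked from 45, did not. Most of the 6 ratios share Vm34Ca, so they are not separate observations. Where both genes are vitelline membrane genes, the uncertain division of reads among them, given above, applies to the ratio.

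The genes that follicle cells need to amplify the chorion clusters had lower estimates throughout. Of 10 listed genes 9 were tested, and in all 9 the FB-Dp110DN libraries were below all FB-GAL4 libraries, beside 21% of all genes. They included replication and cell cycle factors that many dividing cells use, so the list is not particular to chorion genes. None of the 9 passed the adjusted limit in edgeR, 6 were lower at an unadjusted p-value under 0.05, as were 12.5% of all genes, and DESeq2 called 3 lower, as it did 3.39% of all genes. The 3 were chif, dup and Orc2, all with roles in the start of replication and named after their values were seen. The median log2 fold change of all 9 genes was -0.52 and their summed level was 588, 494 and 569 CPM in FB-Dp110DN, against 696, 876 and 742 CPM in FB-GAL4. E2f1, a cell cycle transcription factor of this list, had 143, 124 and 123 CPM in FB-Dp110DN, against 146, 167 and 153 CPM in FB-GAL4. Dp, its binding partner, had 121, 110 and 132 CPM in FB-Dp110DN, against 146, 162 and 149 CPM in FB-GAL4. Without replicates 3 the edgeR fit called 4 of the 9, all lower, beside 4.71% of all genes. Its p-values do not measure the spread of single genes, and 0 were called without replicates 1 or without replicates 2.

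The listed germline genes also had mostly negative estimates. Of the 13 found, 11 were negative with a median of -0.55, beside 46.5% negative estimates among all genes. In edgeR 0 were called, beside 0.0289% of all genes, and 4 were lower at an unadjusted p-value under 0.05, beside 12.5%. DESeq2 called 1 lower, beside 3.39%. The gene DESeq2 called was bcd (bicoid), the anterior determinant, named after its values were seen, with 24.5, 16.9 and 21.6 CPM in FB-Dp110DN, against 38.7, 44.3 and 35.4 CPM in FB-GAL4. Without replicates 3 the edgeR fit called 10 germline genes, all lower, beside 4.71% of all genes. Its p-values do not measure the spread of single genes, and 0 were called without replicates 1 or without replicates 2. The median log2 ratio of the germline genes was -0.35, -1.30 and -0.06 in the pairs of replicates 1, 2 and 3. For the other eggshell genes it was -0.42, -0.90 and 0.49 in the same pairs. Osk (oskar), the germline determinant of the egg's posterior, had 408, 239 and 642 CPM in FB-Dp110DN, against 563, 603 and 656 CPM in FB-GAL4. Replicate 2 of FB-Dp110DN, the library with the lowest eggshell total, was thus the lowest for osk too. Of 7 general follicle cell genes found, several of which other tissues express as well, 5 estimates were positive. Their median was 0.19, beside 0.04 for all genes. The part of the germline levels in the eggshell levels was not tested.

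**Figure D5:**
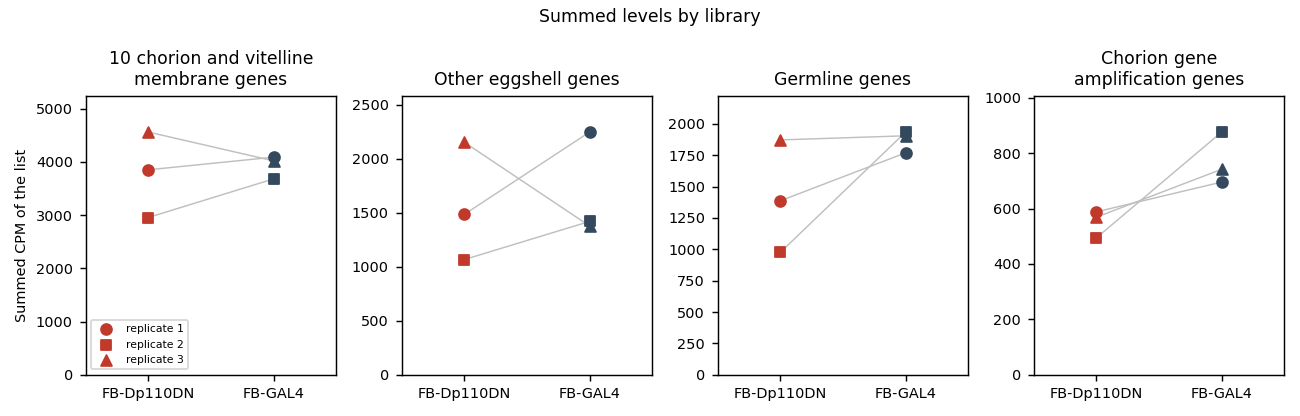
Summed CPM (vertical axes from 0) of the 10 eggshell genes, 17 other eggshell genes, 13 germline genes and 9 genes of chorion gene amplification in the FB-Dp110DN libraries (red, left) and the FB-GAL4 libraries (blue, right), with same-numbered libraries joined. The amplification genes do not overlap between the groups, whereas the 10 eggshell genes reach 2955 to 4562 CPM in FB-Dp110DN and 3681 to 4089 CPM in FB-GAL4.

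Lists for other cell types gave the following beside these values. Of 8 fat body genes found, 8 estimates were positive with a median of 0.58. Among all genes 46.5% of the estimates were negative, with a median of 0.04. The fat body list includes Yp1, Yp2 and Yp3, which are also expressed in follicle cells. Of 8 gut protease genes 6 were positive with a median of 0.21, and their sum was 19406, 18639 and 3730 CPM in FB-Dp110DN, against 16334, 10395 and 4180 CPM in FB-GAL4. Muscle, neuron and haemocyte genes had medians of 0.62 over 7, 0.49 over 4 and 0.35 over 3. The spermatheca gene Send1, the only tested gene of its list, had 14.3, 3.09 and 10.2 CPM in FB-Dp110DN, against 4.12, 0 and 10.8 CPM in FB-GAL4. Of all these lists 0 genes were called in edgeR, beside 0.0289% of all genes. At an unadjusted p-value under 0.05 there were 1 of 8 fat body, 2 of 8 gut, 6 of 7 muscle, 3 of 4 neuron and 1 of 3 haemocyte genes, all higher, beside 13.1% of all genes. DESeq2 called 1 gut gene (Jon25Bi), 6 muscle genes and 1 neuron gene (nSyb), all higher, beside 6.16% of all genes.

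The genes most like the mean standardised profile of the 10 were not eggshell genes. By the highest Pearson's r over the 6 libraries they were Prx4, a peroxiredoxin (0.997), mRpL30, a mitochondrial ribosomal protein (0.996), Ndfip (0.987), clu, clueless (0.979), CG33947 (0.970), Gabat, a GABA transaminase (0.966), Phb2, a prohibitin (0.959), and the odorant-binding protein gene Obp69a (0.958). Obp69a was near the floor, at 0.41 to 0.88 CPM. Among eggshell genes clos and Vml came nearest at 0.95. The mean profile averages classes that were opposed to each other. Outside the 10 genes, Vml, psd and dec ranked 1, 2 and 8 of all tested genes for the vitelline membrane profile. For the X-cluster profile yellow-g ranked 4, and for the 3L-cluster profile no listed eggshell gene was among the 8 closest.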

How the data were processed

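RNA-seq had been done on an mRNA preparation of 1 ug of RNA with 10 PCR cycles. Per the study's methods and labels, the authors aligned paired-end reads to build BDGP5 with TopHat 2.0.11 and counted them per gene with HTSeq; the strand setting is not given in the sources used here. The authors deposited raw counts per gene, and these counts were used. Columns of the same table that hold the authors' own DESeq2 comparison (mean signal, log2 fold change and its error, Wald score, p-value and adjusted p-value) were not used. Of 15682 identifiers, 15002 matched a symbol.

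After filterByExpr, edgeR 4.0.16 (R 4.3.3) gave quasi-likelihood tests on group, with the replicate number as a block, TMM scaling and Benjamini-Hochberg adjustment over 10398 genes (limit 0.05); for DESeq2 the version was 1.42.0. The pairing comes from the study's methods, by which samples of a day were processed in parallel, and from the replicate numbers in the titles, although FB-GAL4 replicates 2 and 3 carry the same description. Deviations from group means correlated at 0.416, 0.189 and 0.59 within the pairs, but also at 0.384 between FB-Dp110DN 1 and FB-GAL4 2 and at 0.221 between FB-Dp110DN 2 and FB-GAL4 1, so that these values set only replicate 3 apart and the pairing of replicates 1 and 2 rests on the sources. Log2 CPM used a prior count of 2, and CPM per kb the union of exons in BDGP6, since no annotation of the authors' build was used; therefore no coordinates are given. Intervals of shares are Wilson 95% intervals. Replicates were separate samples of pooled flies, 5 each by the series design and another number by the study's methods. The code was tested on simulated counts.

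The 10 genes and all gene lists were chosen with earlier results of these data known. Besides the 10 genes and Pi3K92E, any tested gene of the other eggshell list could be named, from each other list at most the 4 of highest mean CPM, and the 8 genes most like the mean profile; others were named after their values were seen. The listed names vas, nos, br, Notch, Orc1, FASN1 and wupA were not matched. The alternatives left out the block, used the size factors or the Wald test of DESeq2, dropped the filter or asked for 10 counts per library, and left out each pair.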

Additional observations from a re-analysis of the deposited data

How the results depend on the processing

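The model was refitted under 8 alternatives. Over all genes 3 were called, and the count was 0 without the replicate block, 993 with the DESeq2 Wald test, 9 with no filter and 0 to 875 when pairs of replicates were left out. For the 10 eggshell genes 0 were called under every alternative except in the range of 0 to 4 when pairs were left out, the 4 being reached without replicates 3. With the DESeq2 Wald test the calls were 1 for the other eggshell genes, 1 germline, 3 chorion amplification, 6 muscle, 1 gut and 1 neuron gene, against 0 in edgeR. When pairs were left out, the ranges were 0 to 7 for the other eggshell genes, 0 to 10 for germline, 0 to 4 for chorion amplification and 0 to 1 each for fat body, muscle and spermatheca genes. Signs of the eggshell estimates turned in 13 of 80 combinations of gene and alternative. Without the replicate block Vm26Aa had 0.0115, and with no filter Cp38 had -0.0027 and Vm26Ab -0.0043. When pairs were left out, the log2 fold change ran from -0.22 to 0.59 for Cp16, from -2.15 to 0.57 for Cp18, from -0.56 to 0.38 for Cp36, from -0.31 to 0.36 for Cp38, from -0.92 to 0.29 for Vm26Aa, from -0.68 to 0.58 for Vm26Ab and from -0.42 to 1.01 for Vm32E. The signs of Cp15, Cp19 and Vm34Ca held in all 8 alternatives. The median over the 10 genes ran from -0.49 to 0.43, within the SD of 0.81 between the pairs. The replicate block changed no other call on the genes described. The causes of these changes were not tested. The least abundant value of the 10 genes, 510 counts, leaves counting error small beside the spread between libraries. The spermatheca list gave no value with at least 10 counts in every library, where no gene of it was tested.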
